A study of Homo sapiens with 4 samples.

Results

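The genes described here are core histone variant genes grouped as polyadenylated and replication-independent, although H2AX also gives a stem-loop mRNA. The members were H2AZ1, H2AZ2, H2AX, H2AJ, MACROH2A1, MACROH2A2, H3-3A and H3-3B, found by symbol through their Ensembl identifiers, which gave 8 of the 60708 genes listed. The study used HEK293 cells, derived from human embryonic kidney, with a degron on the endogenous RPB1, the largest subunit of RNA polymerase II, so that auxin triggers its destruction. They were transiently transfected with RPB1 that carries either 52 wild-type CTD repeats (52X WT) or a CTD with threonine-4 of each repeat changed to alanine (52X T4A). After 48 h auxin was added for another 48 h, and RNA made during 20 min of 4-thiouridine labeling was purified and sequenced (TT-seq), with 2 libraries per group. Both groups thus carried the degron, a plasmid and the auxin treatment, and no library without auxin was analysed here. The endogenous and the plasmid-derived RPB1 share most of their sequence, so the level of POLR2A, at 7429 to 9613 CPM (counts scaled to the library's total), does not check the labels. Nothing in the labels says that the libraries of a group came from separate cultures, so p-values measure only the spread between these libraries.

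Most core histones are made in S phase from clustered, intronless genes, whose mRNAs end in a stem-loop in place of a poly(A) tail. Variant histones are made throughout the cell cycle, mostly from genes with introns and poly(A) signals, and are placed into chromatin by dedicated chaperones and remodelers. H2A.Z marks promoters and enhancers, H3.3 replaces H3 where nucleosomes turn over, H2A.X is phosphorylated around DNA breaks, and macroH2A carries a large globular domain and is enriched in silent chromatin. H2AX is intronless and is unusual in giving both a stem-loop mRNA and a polyadenylated mRNA.

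The promoters of the members are shown first, because labeling measures RNA synthesis and the genes differ in what lies upstream of their starts. All 8 members had at least 1 entry, 12 in all, in the RefSeq promoter table of GRCh38.p14. In the 250 bases upstream of a start, CCAAT (or ATTGG on the other strand) was present for 7 of 8 members, against 32.0% of 35116 promoters. TATAAA (or TTTATA) was present for 3 of 8, against 10.7%, and GGGCGG (or CCGCCC) for 4 of 8, against 42.6%. Members with several entries were counted if any entry matched, and by entry the counts were 9, 3 and 7 of 12. The H2AX, H2AZ1 and H3-3B promoters held both CCAAT and TATAAA. The MACROH2A2 promoter held none of the 3. The 4 upstream windows follow, written 5′ to 3′ on the strand of the gene, with CCAAT and TATAAA in capitals.
H2AX, minus strand, chr11:119095466-119095715: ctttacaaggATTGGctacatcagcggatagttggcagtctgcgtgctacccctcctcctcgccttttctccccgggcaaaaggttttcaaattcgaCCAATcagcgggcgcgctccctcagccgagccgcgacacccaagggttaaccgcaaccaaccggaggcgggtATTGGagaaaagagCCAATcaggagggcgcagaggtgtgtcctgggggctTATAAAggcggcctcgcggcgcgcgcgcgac
H2AZ1, minus strand, chr4:99950276-99950525: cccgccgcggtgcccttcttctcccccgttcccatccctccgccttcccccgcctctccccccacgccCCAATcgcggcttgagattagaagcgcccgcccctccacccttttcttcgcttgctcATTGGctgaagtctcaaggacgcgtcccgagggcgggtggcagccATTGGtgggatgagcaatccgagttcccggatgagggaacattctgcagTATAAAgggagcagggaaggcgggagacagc
H3-3B, minus strand, chr17:75779780-75780029: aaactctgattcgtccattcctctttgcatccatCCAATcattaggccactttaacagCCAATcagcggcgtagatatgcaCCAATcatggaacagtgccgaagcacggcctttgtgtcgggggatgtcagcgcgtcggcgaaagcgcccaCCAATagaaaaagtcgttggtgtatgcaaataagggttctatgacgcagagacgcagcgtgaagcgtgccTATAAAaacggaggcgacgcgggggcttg
MACROH2A2, plus strand, chr10:70052596-70052845: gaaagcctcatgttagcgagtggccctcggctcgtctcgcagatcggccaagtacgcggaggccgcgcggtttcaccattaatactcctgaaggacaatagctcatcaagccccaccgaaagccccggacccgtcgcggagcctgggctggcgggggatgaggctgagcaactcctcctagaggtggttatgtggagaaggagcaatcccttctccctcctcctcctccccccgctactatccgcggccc
The H2AX and H3-3B windows each held 4 CCAAT matches and the H2AZ1 window held 3. A match is a string of letters and not a mapped binding site.

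The libraries held between 33188536 and 45605027 counts over genes, introns included. Log2 CPM, scaled by TMM, correlated at 0.991 between the WT libraries and at 0.979 between the T4A libraries. T4A replicate 1 stood farthest from the WT libraries, at 0.974 and 0.975. T4A replicate 2 correlated at 0.989 and 0.988 with the WT libraries, more than with T4A replicate 1, so the T4A libraries did not group together. T4A replicate 1 was also low at GC-rich genes. Among 195 protein-coding genes with a mean count of at least 200 and a transcript GC content above 65%, its log2 CPM lay below that of T4A replicate 2 by a median of −0.79, whereas the median was 0.11 over 2562 genes of 40 to 45% GC. Of 3 genes listed as expressed in HEK293, LIN28B was at 181 to 203 CPM and PAX2 at 1.75 to 2.89 CPM, while INA was at 0.118 to 0.153 CPM. Markers of leukocytes (PTPRC), hepatocytes (ALB), fibroblasts (COL1A2) and erythroid cells (HBB) stayed at 1.15 CPM or less, and HBB was listed at 0 in 3 libraries.

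All 8 members were counted well enough to be tested, with the fewest reads on H2AJ (174 to 278 counts). Levels were compared between genes as CPM, from here on scaled by TMM, per kb of listed gene length, which includes introns. H2AZ1 had the highest mean over the 4 libraries, 33.4 CPM per kb. It was followed by H2AX (23.1), H3-3A (14.1), H3-3B (13.4), MACROH2A1 (6.71), H2AZ2 (2.90), H2AJ (1.61) and MACROH2A2 (0.357 CPM per kb). The highest mean was 93.6 times the lowest. The ranges over the 4 libraries overlapped between H2AZ1 and H2AX, between H2AX and H3-3A and between H3-3A and H3-3B, whereas each step below H3-3B was apart. H2AX and H3-3A overlapped only through T4A replicate 1, since the other 3 H2AX libraries (27.1 to 32.3 CPM per kb) lay above the 4 of H3-3A (12.2 to 15.6 CPM per kb). The order depends on the length used, since the listed span of H3-3B, 9460 bp, is longer than its RefSeq span of 3346 bp. The same counts, intronic reads included, were also divided by exonic length, which raises genes with long introns. This placed H3-3A first at 37.3 CPM per kb and MACROH2A1 (26.0) above H2AX (23.5) and H3-3B (20.7). MACROH2A2 was last at 1.42 CPM per kb, a ratio of 26.3 between first and last.

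**Figure D1:**
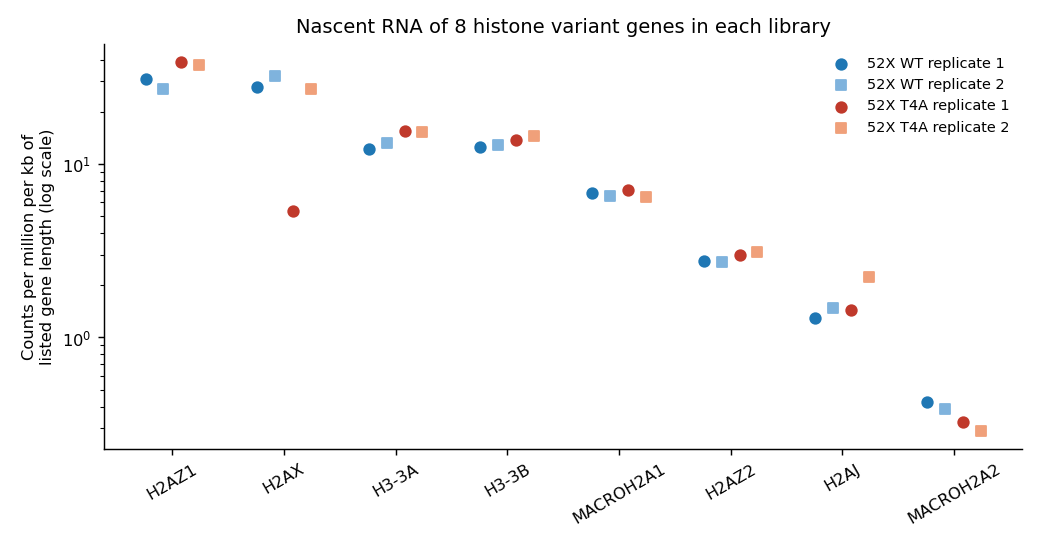
Nascent RNA level of each of the 8 variant genes in each of the 4 libraries, in TMM-scaled CPM per kb of listed gene length on a log axis; each point is 1 library. H2AX in T4A replicate 1 lies at 5.37 CPM per kb, far below its other 3 libraries (27.1 to 32.3), and no other gene has a library so far from the rest.

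Against 52X WT, none of the 8 members passed the threshold (quasi-likelihood test of edgeR, Benjamini-Hochberg adjusted p under 0.05 together with more than a 1.5-fold difference), which 0.00429% of the 23321 genes tested passed. At an unadjusted p-value below 0.05, H2AZ1 and H3-3A were higher in T4A and MACROH2A2 was lower, against 7.45% of all genes on the higher and 8.02% on the lower side. Both T4A libraries lay above both WT libraries for 4 members (H2AZ1, H2AZ2, H3-3A and H3-3B) and below them for 2 (H2AX and MACROH2A2). Over all genes these shares were 24.8% and 24.7%. The median log2 fold change of the 8 members was 0.15, and that of all genes tested was −0.00076.

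H2AZ1 (ENSG00000164032, chromosome 4 of GRCh38, 99948086 to 99950355, minus strand) encodes H2A.Z.1. Its level was 70.1 and 61.2 CPM in WT replicates 1 and 2 and 87.5 and 84.3 CPM in T4A replicates 1 and 2. Both T4A libraries were above both WT libraries, and the T4A libraries lay closer to each other than the WT libraries did. The means were 65.6 ± 6.28 and 85.9 ± 2.23 CPM (SD, n = 2 each), a log2 fold change of 0.39 (standard error, SE, 0.10 and edgeR adjusted p = 0.204). H2AZ2 (ENSG00000105968, chromosome 7, 44826791 to 44848087, minus strand) encodes the closely related H2A.Z.2. It was at 58.9 and 58.3 CPM in the WT and at 64.0 and 65.8 CPM in the T4A libraries, so the groups did not overlap, and its log2 fold change was 0.15 (SE 0.09 and edgeR adjusted p = 0.442).

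The H3.3 genes H3-3A and H3-3B encode the same protein from different loci. H3-3A (ENSG00000163041, chromosome 1, 226061851 to 226072019, plus strand) was at 124 and 135 CPM in the WT and at 158 and 155 CPM in the T4A libraries. The groups did not overlap, and the log2 fold change was 0.28 (SE 0.09 and edgeR adjusted p = 0.247). H3-3B (ENSG00000132475, chromosome 17, 75776434 to 75785893, minus strand) was at 118 and 121 CPM in the WT and at 129 and 138 CPM in the T4A libraries. Its T4A libraries were again above its WT libraries, by a smaller step (log2 fold change 0.16, SE 0.09 and edgeR adjusted p = 0.402). These loci have processed pseudogenes that could take reads, but the 46 H3 pseudogenes matched by symbol held 18 to 30 counts per library in all, and the 8 H2A.Z pseudogenes held 3 to 5. The column names say that only uniquely aligned reads entered the table, so reads shared by a gene and its copies are missing from both.

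The macroH2A genes were the least alike of the paralog pairs in level. MACROH2A1 (ENSG00000113648, chromosome 5, 135333900 to 135399914, minus strand) was the most counted member and the one with the longest listed span. It was at 448 and 432 CPM in the WT and at 467 and 424 CPM in the T4A libraries, which enclosed both WT values (log2 fold change 0.02, SE 0.11 and edgeR adjusted p = 0.952). MACROH2A2 (ENSG00000099284, chromosome 10, 70052544 to 70112282, plus strand) was at 25.2 and 23.2 CPM in the WT and at 19.4 and 17.4 CPM in the T4A libraries. Its groups did not overlap. The log2 fold change was −0.40 (SE 0.13 and edgeR adjusted p = 0.246). AIFM2, an oxidoreductase gene that protects against ferroptosis, runs over 23.5% of the MACROH2A2 span on the other strand and was at 30.4 and 30.3 CPM in the WT and at 24.5 and 23.7 CPM in the T4A libraries, −0.33 as log2 fold change (edgeR adjusted p = 0.250). The values show that strand was used in the counting, since all 901 lncRNA genes inside a counted protein-coding gene of their own strand were listed at 0, against 14.7% of 2712 that lie only in genes of the opposite strand.

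H2AX (ENSG00000188486, chromosome 11, 119093854 to 119095467, minus strand) differed more between the T4A libraries than between the groups. WT replicates 1 and 2 had 1757 and 2296 counts, T4A replicate 2 had 1511, and T4A replicate 1 had 291. In TMM-scaled CPM these were 44.9, 52.1, 43.7 and 8.67, so T4A replicate 2 lay just under the lower WT library and 5.04-fold above T4A replicate 1. The log2 fold change of −0.89 had a standard error of 0.54 (edgeR adjusted p = 0.449). The value rested on a single library. It was −0.14 without T4A replicate 1 and −2.50 without T4A replicate 2.

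The gap between the T4A libraries at H2AX was set beside GC content and length, and the part of either in it was not tested. Its transcript has a GC content of 66.8%, the highest of the 8, the others lying between 40.5% and 51.9%. Among 28 protein-coding genes above 65% GC and under 5 kb, T4A replicate 1 was lower than T4A replicate 2 by a median of −1.61 on the log2 scale (−0.79 over the 195 genes of any length), against −2.33 for H2AX, and 9 of these 28, H2AX among them, had a gap at least as wide. Over all 10710 protein-coding genes with a mean count of at least 200, 25 did. Between the WT libraries the difference at H2AX was −0.21. With the trend of each library on GC content removed, the log2 fold change of H2AX was −0.80 (edgeR adjusted p = 0.257). That trend was fitted over all genes, long genes included, where it was shallower.

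**Figure D2:**
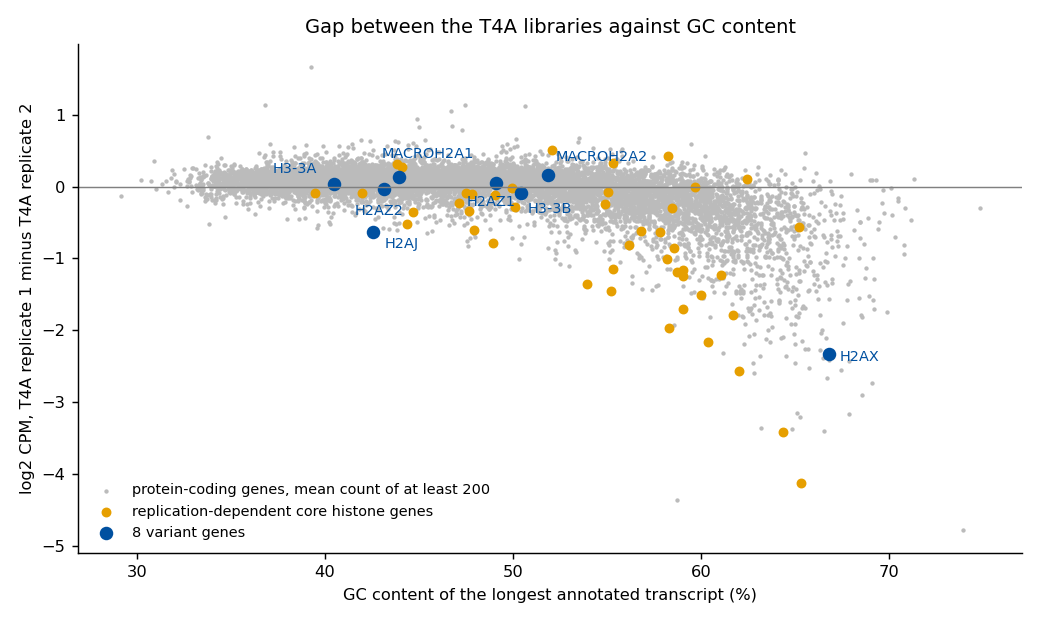
Difference in log2 CPM between T4A replicate 1 and T4A replicate 2 (vertical axis) against GC content of the longest annotated transcript in percent (horizontal axis). Grey points are protein-coding genes with a mean count of at least 200, orange points replication-dependent core histone genes and blue points the 8 variant genes. Above about 55% GC the grey points bend downward, and H2AX lies at 66.8% and −2.33 with the low points there, while the other 7 variants lie between −0.63 and 0.16.

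H2AJ (ENSG00000246705, chromosome 12, 14774383 to 14778002, plus strand), which encodes an H2A variant with a divergent carboxyl terminus, was the least counted member. It was at 4.70 and 5.33 CPM in the WT and at 5.18 and 8.04 CPM in the T4A libraries. T4A replicate 1 lay between the WT libraries and only T4A replicate 2 was above them, so the groups overlapped (log2 fold change 0.40, SE 0.24 and edgeR adjusted p = 0.446). Without T4A replicate 1 the value was 0.69, and without T4A replicate 2 it was 0.03.

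**Figure D3:**
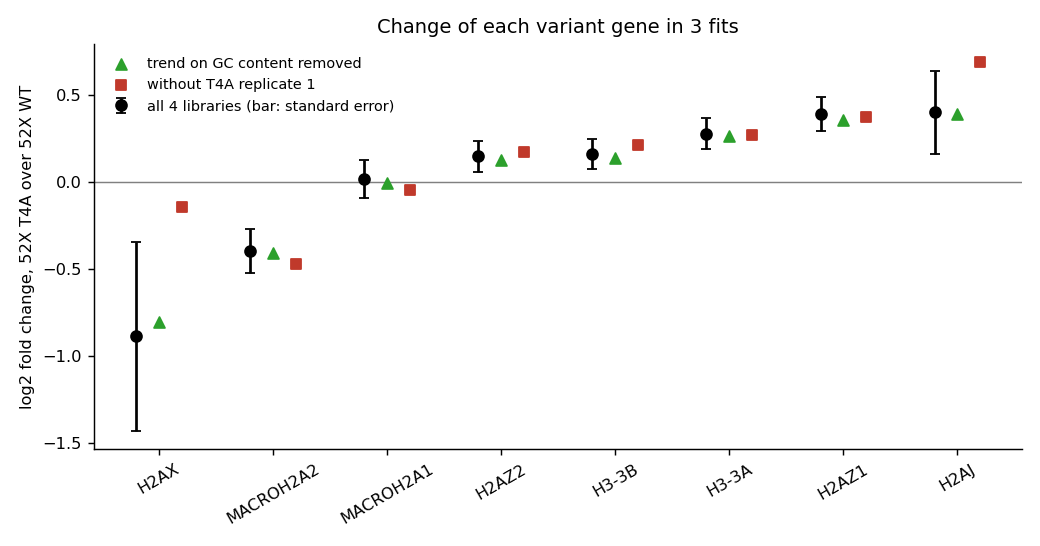
Log2 fold change of 52X T4A over 52X WT (vertical axis) for each of the 8 genes in 3 fits: all 4 libraries (black, bars are standard errors), with the trend of each library on GC content removed (green) and without T4A replicate 1 (red). H2AX moves from −0.89 to −0.14 and H2AJ from 0.40 to 0.69 without T4A replicate 1, while MACROH2A2 stays between −0.47 and −0.40 and H2AZ1 between 0.35 and 0.39.

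Ratios between paralogs were compared because library scaling cancels in them. The count ratio of MACROH2A1 to MACROH2A2 was 17.8 and 18.6 in the WT and 24.0 and 24.4 in the T4A libraries, a difference of 0.41 on the log2 scale. That of H2AZ1 to H2AZ2 was 1.19 and 1.05 in the WT and 1.37 and 1.28 in the T4A libraries (0.24), and that of H3-3A to H3-3B was 1.05 and 1.11 in the WT and 1.22 and 1.12 in the T4A libraries (0.12). In all 3 pairs both T4A ratios were above both WT ratios. How often other gene pairs separate in this way was not computed. Among single genes, 24.8% had both T4A libraries above both WT libraries and 24.7% had them below. The T4A ratio of H3-3A to H3-3B in replicate 2 exceeded the higher WT ratio by less than the WT ratios differed from each other. A two-sided exact permutation test gave p = 0.333 for each pair, also after adjustment over the 3, which is the smallest that 2 libraries against 2 allow.

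H2AX was then set beside the replication-dependent core histone genes, which as a class are known for intronless bodies and stem-loop mRNAs. The listed spans, over which reads were counted, exceed 5 kb for 10 of the genes tested. Of 57 such genes, 44 were tested. At an unadjusted p-value below 0.05, 9 were lower (20.5%, against 8.02% of all genes) and 4 higher in T4A (9.09%, against 7.45%). None passed the threshold, and their median log2 fold change was −0.39 (all genes, −0.00076). The median was −0.55 over the 34 genes with a listed span of at most 5 kb. T4A replicate 1 was the lowest library for 28 of these 34. Both T4A libraries lay below both WT libraries for 20 of the 44 (45.5%, against 24.7% of all genes) and above them for 7 (15.9%, against 24.8%). H3C2, for example, was at 62.1 and 65.04 CPM in the WT, 26.0 CPM in T4A replicate 1 and 45.6 CPM in T4A replicate 2. T4A replicate 1 was the lowest library for 33 of the 44 genes (75.0%, against 25.5% of all genes). Relative to the WT mean, T4A replicate 1 had a median of −0.73 and T4A replicate 2 of −0.12, and without T4A replicate 1 the median log2 fold change was −0.12. In that fit, which rests on T4A replicate 2 alone for its group, H4C14 and H4C15 had log2 fold changes of 0.69 and 0.82. The families differed in the level of T4A replicate 1. They also differed in listed span, since most of the genes over 5 kb were H2B genes. The part of span or GC content in the family levels was not tested. The T4A replicate 1 median was −1.46 for 11 H2A genes (median GC content 58.6%), −1.05 for 9 H3 genes (59.1%), −0.34 for 13 H2B genes (50.0%) and 0.39 for 11 H4 genes (55.1%), and H2AX was at −2.47. Among them H3C13 was at 22.8, 25.1, 1.79 and 19.5 CPM and H2AC20 at 30.6, 32.7, 6.11 and 24.1 CPM in WT replicates 1 and 2 and T4A replicates 1 and 2. The most counted genes of the list, H2AC6, H2BC11, H2BC18 and H2BC5, had log2 fold changes of 0.11, −0.11, −0.18 and −0.08, counted over listed spans of 14.97, 6.90, 29.7 and 13.2 kb. Several genes of the list are near-identical copies, whose uniquely aligned reads are uncertain.

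**Figure D4:**
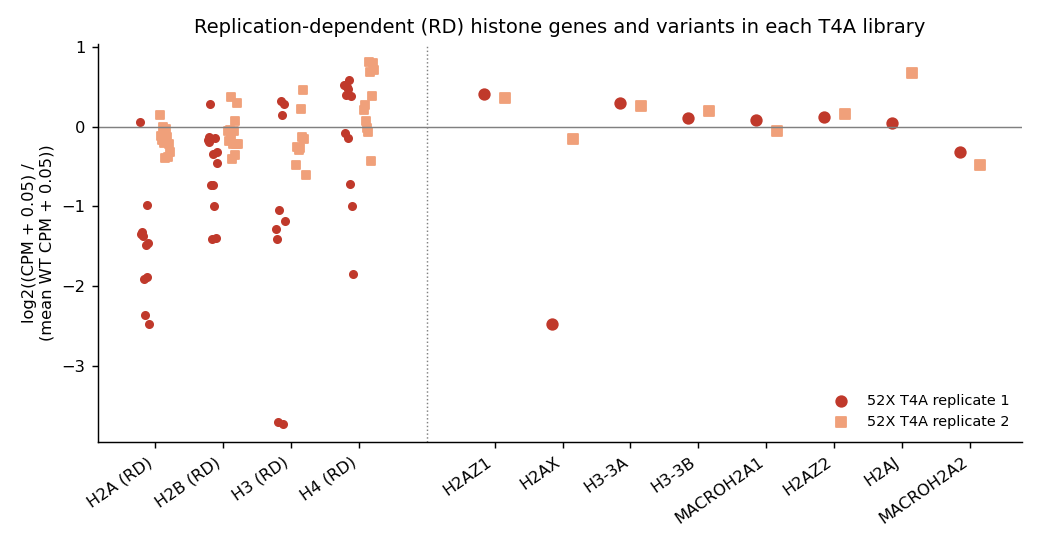
Level in each T4A library relative to the mean of the WT libraries, as log2 of the ratio of CPM with 0.05 added to both, for tested replication-dependent (RD) core histone genes by family (left of the dotted line) and for each of the 8 variant genes (right). H2AX in T4A replicate 1 lies as low as the lowest RD H2A genes, whereas the other 7 variants lie within 0.7 of the WT mean in both T4A libraries.

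CENPA, the centromeric H3 variant, was the only other core histone variant counted well enough to be tested, of 6 found by symbol. It had 634 to 978 counts per library and a log2 fold change of −0.11 (edgeR adjusted p = 0.701). H3-5, an H3.3 copy, had 2 to 6 counts per library, and the testis variants H2AB1, H2AB2, H2AB3 and H2BW1 had 0 to 4.

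The genes that deposit, remove or read the variants were taken next. Of 39 such genes, all tested, none passed the threshold, and the median log2 fold change was −0.07. At an unadjusted p-value below 0.05, 4 were lower (10.3%, against 8.02% of all genes) and 2 higher in T4A (5.13%, against 7.45%). The libraries did not overlap for 12 genes that were lower (30.8%, against 24.7%) and 6 that were higher (15.4%, against 24.8%). The lower ones were 31.25% of H2A.Z exchange and 44.4% of H3.3 deposition genes. They were 33.3% of H2AX phosphorylation and reading and 0% of general H2A-H2B exchange genes. In the same order of lists, the higher ones were 12.5%, 22.2%, 0% and 40%. Among 16 genes of H2A.Z exchange, RUVBL1, an ATPase shared by the SRCAP, TIP60 and INO80 complexes, was at 127 and 115 CPM in the WT and at 79.5 and 85.9 CPM in the T4A libraries (log2 fold change −0.55, SE 0.09 and edgeR adjusted p = 0.150). TRRAP, the scaffold of TIP60, had −0.26. SRCAP and EP400, the ATPases that load H2A.Z, had 0.13 and −0.07, and ANP32E, which removes it, had 0.04. Among 9 genes of H3.3 deposition, NASP, an H3-H4 chaperone, had 0.27, and HIRA, DAXX and ATRX had −0.12, −0.19 and −0.15. In the same list UBN2 had −0.13, while ASF1A, DEK and UBN1 had 0.13, 0.10 and 0.09. Among 9 genes that phosphorylate H2AX or act on the mark, RNF8, a ubiquitin ligase recruited to breaks, was at 59.96 and 62.3 CPM in the WT and at 45.8 and 43.0 CPM in the T4A libraries (−0.46, SE 0.09 and edgeR adjusted p = 0.173), and ATR, a kinase of H2AX, had −0.27. Among 5 genes of general H2A-H2B and chromatin remodeling, HELLS, a chromatin remodeler, had 0.35 (SE 0.09 and edgeR adjusted p = 0.218). CABIN1, of the HIRA complex, and ING3, of TIP60, had −0.21 and 0.18.

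**Figure D5:**
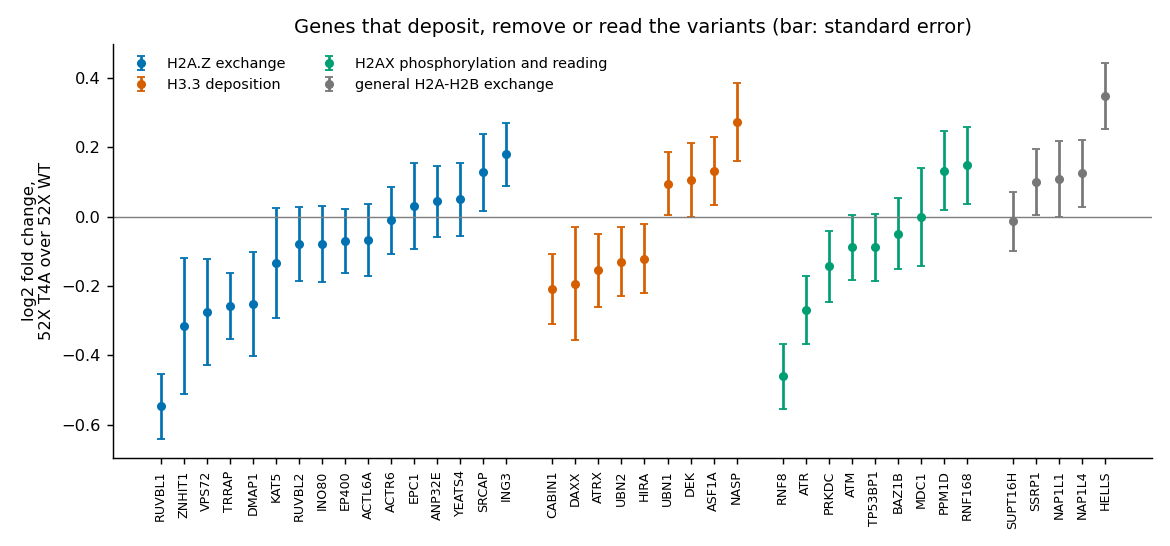
Log2 fold change of 52X T4A over 52X WT with its standard error (bars) for 39 genes of H2A.Z exchange (blue), H3.3 deposition (orange), H2AX phosphorylation and reading (green) and general H2A-H2B exchange (grey), sorted within each group. RUVBL1 at −0.55 and RNF8 at −0.46 are the lowest and HELLS at 0.35 is the highest.

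Within 10 kb of the members 17 other genes were listed, of which 15 were tested. None passed the threshold. Divergent lncRNA genes start next to 4 members. H2AZ1-DT, which overlaps the first 350 bp of H2AZ1 on the other strand, was at 11.8 and 13.5 CPM in the WT and at 15.7 and 13.6 CPM in the T4A libraries (log2 fold change 0.21). H2AZ2-DT had 0.32, H3-3A-DT −0.03 and ENSG00000270021, which overlaps the first 635 bp of MACROH2A1, 0.27. DPAGT1, upstream of H2AX on the same strand, had −0.12 and was not low in T4A replicate 1, at 8.37 CPM against 6.65 CPM in T4A replicate 2. DNAJB14, downstream of H2AZ1 by 1467 bp on the same strand, had −0.12. ENSG00000261324, a lncRNA gene 6451 bp from H2AJ, had 0.48 and the lowest adjusted p of the 15 (0.209 from edgeR's test), and H4C16, between the pair, had 0.11. PPIA, C2CD2L, WBP11, PITX1-AS1 and UNK had log2 fold changes between −0.09 and 0.05.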

How the data were processed

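The authors deposited a featureCounts table of raw counts per Ensembl gene from uniquely aligned reads, as the column names say. Per the labels, processing used FastQC, cutadapt 4.6, STAR 2.7.11b, Picard, deepTools 3.5.6 and GRCh38; the counting options are not given in the sources used here. The listed length equals the gene span for each gene, so intronic reads were counted. Names, exonic lengths and transcript GC content came from GENCODE v44 by identifier (58700 genes named), in its version lifted to the build before GRCh38. By the listed positions, 99.97% of 19052 protein-coding genes overlapped their GRCh38 position. Promoter sequences are from RefSeq.

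Counts were fitted with edgeR 4.0.16 in R 4.3.3 (TMM, default filter on low counts, quasi-likelihood test, Benjamini-Hochberg adjustment over 23321 genes). Totals were 39249066 and 45605027 for 52X WT and 33853507 and 33188536 for 52X T4A. CPM of POLR2A and of the cell type markers were scaled to library totals, and all other CPM by TMM. Log2 CPM used a prior count of 2. Standard errors were derived from the F statistic. The script was run on simulated counts. A minimum detection rate was required only at a spread well below that fitted here, and detection at the fitted spread is not reported. Alternatives were library size, RLE, mitochondrial scaling, other filters, DESeq2 1.42.0, the replicate number as a block and each library left out. 2 fits without the trend on GC content (lowess, span 0.3) were added after seeing the data. The members and lists were chosen with earlier results of these data known. Named genes were the members, neighbours within 10 kb, other variants, up to 8 chaperone or reader genes with the lowest p-value, the 4 most counted replication-dependent genes and the nearest gene of each member. SRCAP, EP400, ANP32E, HIRA, DAXX, ATRX, UBN1, UBN2, ASF1A, DEK, H3C2, H3C13, H2AC20, H4C14 and H4C15 were named after their values were seen. The 2 neighbours not tested were listed at 0. The values of 1 neighbour and 1 marker are not reported here.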

Additional observations from a re-analysis of the deposited data

How the results depend on the processing

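H2AZ1, H2AZ2, H3-3A, H3-3B and MACROH2A2 kept their direction and did not pass the threshold in any of the 13 alternative fits, with log2 fold changes from 0.27 to 0.61, 0.11 to 0.36, 0.20 to 0.50, 0.10 to 0.38 and −0.48 to −0.18. Scaling to mitochondrially encoded genes moved the median of all genes to 0.22, and relative to it the higher values shrink accordingly. DESeq2 gave H2AZ1 an adjusted p of 0.0110 and H3-3A one of 0.0390, both under the fold limit. The edgeR fit with the GC trend removed gave H2AZ1 an adjusted p of 0.0488 and the fit without T4A replicate 2 one of 0.0124, also under it. Among the fits of all 4 libraries, H2AX passed with mitochondrial scaling (−0.74) and with the replicate block (−1.27). MACROH2A1 turned to −0.0082 with no filter, −0.0091 with the GC trend removed, −0.0088 with the block and the GC trend removed, −0.031 without WT replicate 2 and −0.048 without T4A replicate 1.

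Deviations of same-numbered libraries correlated at 0.0050. Replicate 1 minus replicate 2 ran in opposite directions with GC content in the WT and the T4A group. Over 195 protein-coding genes above 65% GC, its median on the log2 scale was 0.22 in WT and −0.79 in T4A. The correlation over all genes thus cannot decide whether the numbers pair the libraries. Against 1 gene called, the replicate block gave 433 (177 higher, 256 lower), the block with the GC trend removed 46, the GC trend removed 95, DESeq2 99, mitochondrial scaling 376 (363 higher, 13 lower) and no filter 65. With 1 library left out, the lone library of a group being assumed to vary like the others, between 0 and 2500 genes were called, 2500 without T4A replicate 2, 195 without T4A replicate 1 and 0 without WT replicate 2 (1913 at an unadjusted p-value below 0.05).

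With 1 library left out, log2 fold changes ran from 0.031 to 0.69 for H2AJ, −2.50 to −0.14 for H2AX, 0.27 to 0.48 for H2AZ1, 0.11 to 0.17 for H2AZ2, 0.20 to 0.32 for H3-3A, 0.098 to 0.21 for H3-3B, −0.048 to 0.070 for MACROH2A1 and −0.48 to −0.33 for MACROH2A2. Medians ran from 0.084 to 0.19 over the members, −0.75 to −0.12 over replication-dependent genes and −0.072 to −0.016 over chaperone and reader genes. Paralog differences ran from 0.15 to 0.33, 0.055 to 0.18 and 0.38 to 0.45 for H2AZ1 over H2AZ2, H3-3A over H3-3B and MACROH2A1 over MACROH2A2. The members' median was 0.21 with library size and 0.37 with mitochondrial scaling, which also moved that of the chaperone and reader genes to 0.16. Dividing the same counts, intronic reads included, by exonic length gave 8.82 for H2AZ2, 26.0 for MACROH2A1 and 1.42 CPM per kb for MACROH2A2. It gave 37.3 for H3-3A and 20.7 CPM per kb for H3-3B.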

Other observations

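For each member, the gene with the most similar profile was found among 9589 genes with a mean count of at least 500, as the smallest root-mean-square difference of log2 CPM over the 4 libraries after each gene's mean was taken off. It is a description over 4 libraries, and close matches are easy to find among so many genes. For H2AX it was CKB, the brain-type creatine kinase, whose transcript has a GC content of 65.01% (difference 0.088). CKB was at 35.2 and 35.7 CPM in the WT libraries, 5.81 CPM in T4A replicate 1 and 32.0 CPM in T4A replicate 2. For H2AZ1 it was ALKBH2 (0.018), for H2AZ2 MED29 (0.0073), for H3-3A DR1 (0.012), for H3-3B WDR77 (0.0026), for MACROH2A1 RACGAP1 (0.0060) and for MACROH2A2 EXPH5 (0.0093), which was at 51.0 and 47.7 CPM in the WT and at 39.7 and 35.6 CPM in the T4A libraries. For H2AJ it was SERTAD1 (0.084). The differences for H2AX and H2AJ were the widest of the 8.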
